A study of Homo sapiens with 9 samples.

Results

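Genes of the TNF superfamily and of its receptor superfamily were followed in the human cell line PC3, which was derived from a bone metastasis of prostate cancer. The set held every probe set whose single gene symbol begins with TNFRSF or TNFSF and a digit, together with TNF, FAS, FASLG, LTB, LTBR, CD40, TRAF1 to TRAF6, BIRC2 and BIRC3. TNFRSF11B and TNFSF11, the decoy receptor of RANK ligand and RANK ligand itself, were left out. The rule took 93 probe sets of 43 genes, out of 19775 genes that the arrays read with a probe set of 1 symbol. Of these 43 genes, 12 encode ligands, 6 encode death receptors, 2 encode decoy receptors, 14 encode other receptors, 6 encode adaptors or inhibitors of apoptosis that bind the receptors, and 3 are noncoding RNAs that carry a receptor's symbol (TNFRSF10A-DT, TNFRSF10B-AS1 and TNFRSF14-AS1). BIRC3 and TRAF2 had no probe set under their symbol in the annotation used and were not analysed here, and TNFSF12 and TNFRSF6B were read only together with a neighbouring gene.

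Total RNA from 9 cultures was hybridized to human U133 Plus 2.0 arrays, which hold several probe sets for many genes. PC3 cells were cultured for 48 h with primary osteoblasts of mice that lack Sost (OB SostKO, 2 arrays), with wild type mouse osteoblasts and 100 ng/ml recombinant human DKK1 (OB WT + rhDKK1, 2 arrays), with wild type mouse osteoblasts and 100 ng/ml recombinant human SOST (OB WT + rhSOST, 3 arrays), or alone (untreated PC3, 2 arrays). SOST and DKK1 are secreted inhibitors of Wnt signaling in bone. The osteoblasts came from the calvaria of newborn mice. In the study's other co-culture assays inserts kept them apart from the PC3 cells, and its methods for the arrays do not give the arrangement. Wild type osteoblasts without added protein are not among the arrays. Osteoblasts and added protein therefore cannot be told apart in the rhDKK1 and rhSOST co-cultures. The arrays of a group are labelled as biological replicates, without saying what was replicated, so the spread between them may be partly technical. The co-cultures with wild type osteoblasts are called rhDKK1 and rhSOST after the protein that was added.

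The values are log2 signals made by the authors with RMA. Probe sets entered the tests if 2 or more arrays read them at or above the array's own 40th percentile, a log2 value between 4.82 and 4.92, and the brightest kept probe set stood for its gene. This kept 33 of the 43 genes for testing, among 14863 genes in all. Of the 33, 31 were at or above that level on all 9 arrays. TNFRSF10D reached it on 3 co-culture arrays and on no untreated array, so that it was kept only through the co-cultures, where its mean was higher. TRAF1 reached it on both untreated arrays and on no co-culture array, so that TRAF1 was kept only through the group where it was higher. Values of different probe sets do not compare the RNA amounts of different genes, and fewer cells with an RNA and less RNA per cell cannot be told apart in total RNA.

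Controls on the arrays differed between co-cultures and untreated PC3. The 24 probe sets for poly-A control RNAs, which are added at the start of labelling, averaged 6.65 ± 0.28 on the co-culture arrays (SD, n = 7) and 11.32 ± 0.48 on the untreated arrays (SD, n = 2; p = 0.0278 in a two-sided exact permutation test, which is the smallest p that 36 splits allow). The 3′ signal minus the 5′ signal of ACTB was 1.38 ± 0.33 on the co-culture arrays (SD, n = 7) and 0.69 ± 0.27 on the untreated arrays (SD, n = 2; exact permutation p = 0.0278), while for GAPDH it was 0.20 and 0.19 (exact permutation p = 0.917). Preparation of the arrays and co-culture therefore cannot be told apart in any comparison with untreated PC3, including all of those below. The epithelial markers KRT8, KRT18, EPCAM and CDH1 lay between percentiles 97.5 and 99.4 of the untreated arrays, the prostate marker KLK3 lay at percentile 69.3, and the prostate marker FOLH1 was below the filter. Of the leukocyte markers, which matter because many of the genes studied here are best known from immune cells, PTPRC (CD45), MS4A1, CD14 and NKG7 were below the filter and CD3E and CD3D passed it at percentiles 42.9 and 45.5, with a summed level of the list between 6.94 and 7.12 on the co-culture arrays and between 6.98 and 7.21 on the untreated arrays.

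TNF family ligands are trimeric proteins, mostly made at the cell surface, that cluster receptors with cysteine-rich repeats. Death receptors carry a cytoplasmic death domain through which they can start apoptosis or, in most cells, NF-κB signaling, other receptors bind TRAF adaptors and cIAP ubiquitin ligases directly, and decoy receptors bind ligand without passing on a signal. In bone, members of the family couple osteoblasts, osteoclasts and tumor cells.

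A single ligand, TNFSF15, rose in all 3 co-cultures, and no other gene of the family passed the test in either direction. Among the 33 genes tested, 1 rose and 0 fell with OB SostKO (limma adjusted p under 0.05 over all genes), where 2.07% of all 14863 genes rose and 1.65% fell. The count was also 1 and 0 with rhDKK1, where 2.50% of all genes rose and 1.76% fell, and 1 and 0 with rhSOST, where 4.87% rose and 2.10% fell. These 3 comparisons share the untreated arrays. At an unadjusted p under 0.05, 3, 7 and 7 of the 33 genes passed in the same order of co-cultures, against 20.7%, 21.3% and 23.6% of all genes. Of these 1, 2 and 2 were higher, against 10.6%, 11.2% and 15.5% of all genes, and 2, 5 and 5 were lower, against 10.1%, 10.1% and 8.09%. At an adjusted p under 0.1, 1 gene was higher in each co-culture, against 4.45%, 5.25% and 8.34% of all genes, and 0, 1 and 2 were lower, against 3.52%, 3.84% and 3.77%. Over the 33 genes the median log2 fold change in OB SostKO, rhDKK1 and rhSOST was -0.06, -0.07 and -0.03, and over all genes tested it was -0.01, -0.01 and 0.02.

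TNFSF15, also called TL1A, is a cytokine first known from endothelial cells, whose growth it inhibits, and it signals through the death receptor TNFRSF25. Its log2 value was 6.87 and 7.09 with OB SostKO, 6.90 and 6.99 with rhDKK1, 7.02, 7.14 and 7.19 with rhSOST, and 6.18 and 6.14 in untreated PC3. All 7 co-culture arrays lay above both untreated arrays, and the arrays of the co-cultures overlapped one another. With OB SostKO the log2 fold change was 0.82 (SE 0.10, 95% interval 0.60 to 1.04, limma adjusted p = 0.00555), a 1.76-fold difference. With rhDKK1 it was 0.79 (SE 0.10, 95% interval 0.57 to 1.01, adjusted p = 0.00590), and with rhSOST it was 0.96 (SE 0.09, 95% interval 0.76 to 1.16, adjusted p = 0.00154), or 1.73-fold and 1.94-fold. In each comparison TNFSF15 had the smallest p of the 33 genes. Without array 2 of rhDKK1 the adjusted p for that co-culture became 0.0591, and in a fit of the 4 arrays of OB SostKO and untreated PC3 alone it became 0.0906 for OB SostKO. Neither test that the methods name called TNFSF15 in any co-culture after Benjamini-Hochberg adjustment, with adjusted p of 0.156, 0.154 and 0.0808 for the Tukey comparisons and of 0.612, 0.604 and 0.574 for the methods' paired t-test, in the order OB SostKO, rhDKK1 and rhSOST.

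TNFSF15 was read by another kept probe set besides 229242_at. This probe set, 221085_at, had log2 values of 5.72 and 6.09 with OB SostKO, 5.86 and 5.87 with rhDKK1, 5.71, 5.95 and 5.54 with rhSOST, and 4.35 and 4.29 in untreated PC3. Both untreated arrays lay under the filter, so 221085_at was kept only through the co-cultures, its direction was fixed by the filter and it adds no test to that of 229242_at. Against the filter level of the untreated arrays, a mean of 4.88, it was at least 2.04-fold higher with OB SostKO, at least 1.97-fold higher with rhDKK1 and at least 1.81-fold higher with rhSOST.

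**Figure D1:**
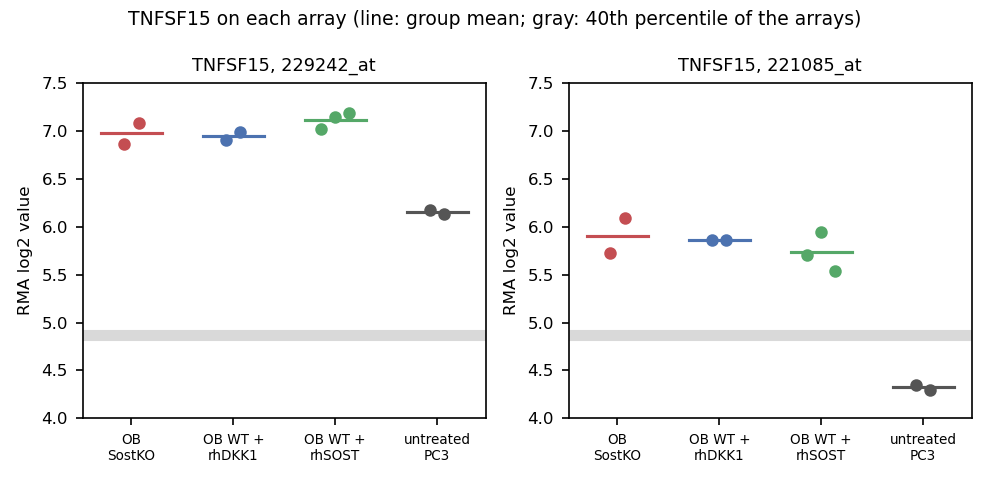
RMA log2 value of both kept TNFSF15 probe sets on each of the 9 arrays, by group, with group means as lines and the range of the 40th percentiles of the arrays in gray. The 7 co-culture arrays lie between 6.87 and 7.19 for 229242_at, above the untreated arrays at 6.18 and 6.14.

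Because TNFSF15 was the gene that moved, the 250 bases before the first start listed for it are shown, 5′ to 3′. Only that start was searched, and whether PC3 cells use it or another start of the gene was not tested. The bases lie at chr9:114792531-114792780 on the minus strand (RefSeq, GRCh38.p14). A match to TGANTCA, the sequence bound by AP-1 factors, is in capitals.
TNFSF15: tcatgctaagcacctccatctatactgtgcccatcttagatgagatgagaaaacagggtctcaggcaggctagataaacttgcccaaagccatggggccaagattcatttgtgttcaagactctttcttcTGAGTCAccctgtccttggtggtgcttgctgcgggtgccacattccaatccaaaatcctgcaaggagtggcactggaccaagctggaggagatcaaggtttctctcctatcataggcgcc
The match begins 120 bases before the start, and the window holds no match to the NF-κB consensus. Both motifs were searched on both strands in promoters of 300 bases, of which 50 lie after the start, using the first start listed for a gene; TGANTCA reads the same on both strands, and the NF-κB consensus can match overlapping places. RefSeq promoters of that length were found for 31 of the 43 genes. Of these, 5 (16.1%) held TGANTCA and 6 (19.4%) held the NF-κB consensus, against 7.76% and 10.8% of 27305 promoters in all. A match is a description of the letters and was not tested as a site.

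The receptors of TNFSF15 did not pass the test. TNFRSF25 (DR3), the signaling receptor of TNFSF15, had log2 values of 7.79 and 7.89 with OB SostKO, 7.86 and 7.68 with rhDKK1, 8.07, 7.80 and 8.67 with rhSOST, and 8.10 and 8.14 in untreated PC3. The groups overlapped, with array 3 of rhSOST highest, and the log2 fold changes of -0.28, -0.35 and 0.06 did not pass (limma adjusted p = 0.521, 0.421 and 0.905). The probe set that stands for TNFRSF25, 211282_x_at, can also match other sequences. The 95% intervals reached -0.81, -0.87 and -0.42 at the lower end, so decreases of that size lie within them. Of the other kept TNFRSF25 probe sets, 219423_x_at had log2 fold changes of -0.14, -0.05 and 0.40, 210847_x_at had -0.06, -0.06 and 0.41, 211841_s_at had -0.33, -0.12 and 0.23, and the dim 216042_at had 0.05, 0.01 and 0.00. With rhSOST the unadjusted p was 0.0318 for 219423_x_at and 0.0316 for 210847_x_at (adjusted p = 0.193 and 0.192 over every kept probe set), and all of these probe sets but 216042_at were highest on array 3 of rhSOST. TNFRSF6B, a secreted decoy that binds TNFSF15, FASLG and TNFSF14, was read with RTEL1 by a shared probe set whose log2 fold changes were 0.16, 0.25 and 0.24 (adjusted p = 0.387, 0.210 and 0.165).

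Among the other ligands, 4 of 11 were kept. LTB, the membrane anchor of the lymphotoxin trimer that binds LTBR, was at 6.36 and 6.18 with OB SostKO, 5.99 and 6.16 with rhDKK1, 6.25, 6.11 and 6.22 with rhSOST, and 6.39 and 6.62 in untreated PC3. Every co-culture array was lower than both untreated arrays, though array 1 of OB SostKO was lower by little. The log2 fold changes of LTB were -0.24, -0.43 and -0.31, in the order OB SostKO, rhDKK1 and rhSOST (limma adjusted p = 0.263, 0.0658 and 0.105), none of them past the threshold. TNFSF13 (APRIL), TNFSF8 (CD30 ligand) and TNFSF9 (4-1BB ligand), which act on lymphocytes, overlapped between co-cultures and untreated PC3, and their log2 fold changes lay between -0.18 and 0.05.

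The remaining 7 ligands stayed under the filter: TNF, FASLG, TNFSF10 (TRAIL), TNFSF13B (BAFF), TNFSF14 (LIGHT), TNFSF18 and TNFSF4. TNF, which gave the family its name, lay between 3.48 and 3.91 on all 9 arrays and had 1 and the same value on 5 of them. FASLG was at or above the filter on 1 array, untreated PC3 array 2 at 5.01. At these levels a change in the RNA could not be read, and none of the 7 was tested.

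Of the death receptors, all 6 were kept and none passed the test. FAS, the receptor of FASLG, was at 6.76 and 7.05 with OB SostKO, 7.04 and 7.0 with rhDKK1, 7.05, 6.91 and 6.80 with rhSOST, and 7.28 and 7.27 in untreated PC3. All co-culture arrays were lower than the untreated arrays, by log2 fold changes of -0.37, -0.25 and -0.35 (limma adjusted p = 0.112, 0.248 and 0.0796). TNFRSF1A, the main receptor of soluble TNF, was at 9.29 and 9.44 with OB SostKO, 9.40 and 9.27 with rhDKK1, 9.59, 9.46 and 9.78 with rhSOST, and 9.69 and 9.71 in untreated PC3. It was below the untreated arrays with OB SostKO and rhDKK1 (log2 fold changes -0.34 and -0.36, adjusted p = 0.133 and 0.108) and overlapped them with rhSOST (-0.09, adjusted p = 0.648).

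The TRAIL receptors that signal, TNFRSF10A and TNFRSF10B, and the orphan death receptor TNFRSF21 had high values with no difference past the test. TNFRSF21 was between 11.99 and 12.12 on the co-culture arrays and at 12.18 and 12.02 in untreated PC3, with log2 fold changes of -0.06, -0.07 and -0.01. Its weaker probe set, 214581_x_at, was between 9.92 and 10.47 on the co-culture arrays and at 10.87 and 10.68 in untreated PC3, without overlap, and its log2 fold changes of -0.62, -0.48 and -0.50 did not pass (limma adjusted p = 0.129, 0.201 and 0.134 over every kept probe set). TNFRSF10B was between 10.35 and 10.56 on the co-culture arrays and at 10.57 and 10.44 in untreated PC3 (log2 fold changes -0.05, -0.09 and -0.11). Its weaker probe sets, 209294_x_at and 210405_x_at, were lower on every co-culture array than on both untreated arrays. Their log2 fold changes were -0.20, -0.23 and -0.31 (limma adjusted p = 0.307, 0.251 and 0.0947 over every kept probe set) and -0.07, -0.15 and -0.17 (adjusted p = 0.671, 0.394 and 0.255). TNFRSF10A was between 9.64 and 9.88 on 6 co-culture arrays and at 9.52 and 9.79 in untreated PC3, but at 8.88 on array 3 of rhSOST.

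That array stood apart in other genes of the set too. Against the mean of arrays 1 and 2 of rhSOST, array 3 was 0.78 lower for TNFRSF10A, 0.74 higher for TNFRSF25 and 0.48 lower for TNFRSF12A, and for the other genes tested the difference was at most 0.26 in size (TNFRSF1A). TNFRSF10A also had the largest standard deviation within groups of the 33 genes, 0.25, where the median was 0.11 for these genes and 0.11 for all genes tested. Without array 3, the log2 fold change of TNFRSF25 with rhSOST was -0.19 in place of 0.06, that of TNFRSF12A was 0.02 in place of -0.14 and that of TNFSF15 was 0.92 in place of 0.96.

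The decoy receptors of TRAIL were near the filter. TNFRSF10C was between 5.08 and 5.59 on the co-culture arrays and at 5.35 and 5.44 in untreated PC3, and TNFRSF10D was between 4.67 and 4.93 on the co-culture arrays and at 4.45 and 4.81 in untreated PC3. Neither passed, and their log2 fold changes lay between -0.18 and 0.20. The upper end is that of TNFRSF10D, which was kept only through the co-cultures.

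**Figure D2:**
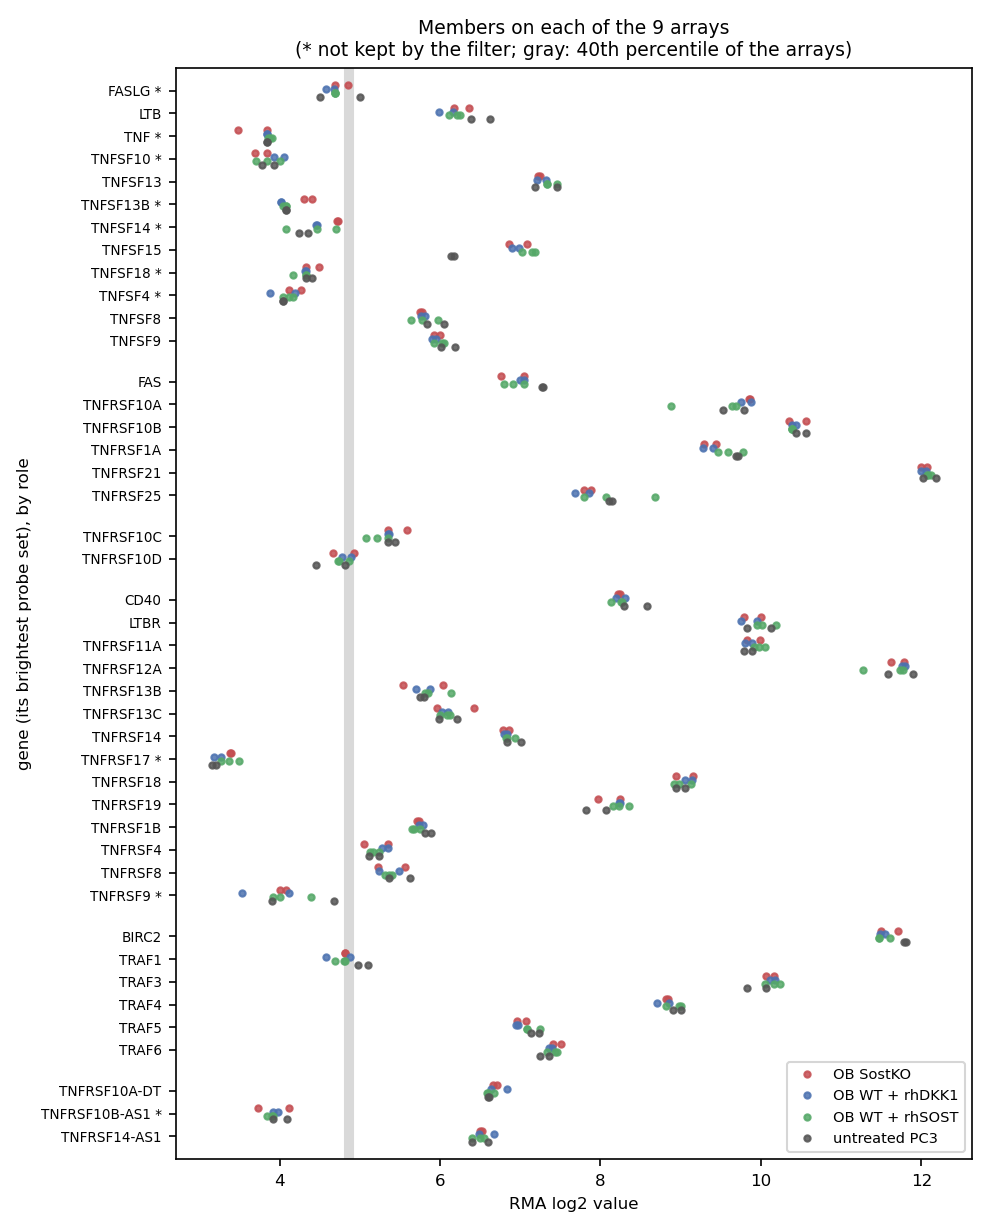
RMA log2 value of the 43 genes on each of the 9 arrays, ordered by role from ligands to noncoding RNAs, with the brightest probe set for each gene, the range of the 40th percentiles in gray and an asterisk on the 10 genes not kept. TNFSF15 is the gene whose 7 co-culture arrays all stand right of the untreated arrays.

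Of the 14 other receptors, 12 were kept, and their log2 fold changes lay between -0.21 and 0.31. TNFRSF12A (Fn14), the receptor of TNFSF12, was between 11.63 and 11.80 on 6 co-culture arrays, at 11.27 on array 3 of rhSOST, and at 11.89 and 11.58 in untreated PC3. TNFRSF19, a receptor without a death domain that is expressed in skin and hair follicle, was at 7.97 and 8.24 with OB SostKO, 8.25 and 8.24 with rhDKK1, 8.24, 8.36 and 8.15 with rhSOST, and 7.82 and 8.07 in untreated PC3. Apart from array 1 of OB SostKO its co-culture arrays were above both untreated arrays, with log2 fold changes of 0.17, 0.30 and 0.31 that did not pass (limma adjusted p = 0.471, 0.200 and 0.136). TNFRSF1B, the second TNF receptor, was lower on all 7 co-culture arrays, at 5.65 to 5.79, than on the untreated arrays, at 5.82 and 5.89, with log2 fold changes of -0.13, -0.09 and -0.16 (adjusted p = 0.356, 0.515 and 0.191).

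Receptors of lymphocytes, of bone and of lymphotoxin showed no difference past the test. TNFRSF11A (RANK), whose signal drives osteoclast formation, was between 9.80 and 10.05 on the co-culture arrays and at 9.80 and 9.88 in untreated PC3, with log2 fold changes of 0.07, 0.00 and 0.14. LTBR, the receptor of LTB, was between 9.75 and 10.19 on the co-culture arrays and at 9.82 and 10.13 in untreated PC3. A weaker LTBR probe set, 243400_x_at, was lower on every co-culture array, at 6.81 to 7.09 against 7.10 and 7.33. Its log2 fold changes of -0.30, -0.22 and -0.30 did not pass (limma adjusted p = 0.250, 0.373 and 0.193 over every kept probe set). LTBR probe set 232819_s_at overlapped, with 0.01, 0.02 and 0.06. TNFRSF4, TNFRSF8, TNFRSF13B, TNFRSF13C, TNFRSF14 and TNFRSF18, which serve T and B cells, were kept and overlapped between co-cultures and untreated PC3 on their brightest probe sets, while TNFRSF9 and TNFRSF17 were under the filter. A weaker TNFRSF4 probe set, 214228_x_at, was lower on every co-culture array, at 5.03 to 5.30 against 5.39 and 5.39, and was not called. Weaker probe sets without overlap were named after their values were seen. How many of all kept probe sets lay without overlap was not counted, so these cases are descriptions only.

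The adaptors and BIRC2 were all kept. BIRC2 (cIAP1), a ubiquitin ligase recruited to TNF receptors, was at 11.71 and 11.50 with OB SostKO, 11.49 and 11.54 with rhDKK1, 11.47, 11.61 and 11.47 with rhSOST, and 11.81 and 11.78 in untreated PC3. It was lower on every co-culture array, with log2 fold changes of -0.19, -0.28 and -0.28 (limma adjusted p = 0.286, 0.131 and 0.0872). TRAF1, an adaptor whose gene is a known NF-κB target, was between 4.57 and 4.88 on the co-culture arrays and at 5.10 and 4.98 in untreated PC3, and had to be higher there to be kept. Its log2 fold changes were -0.22, -0.31 and -0.27 (adjusted p = 0.286, 0.142 and 0.140). TRAF3, which restrains the alternative NF-κB pathway, had log2 fold changes of 0.17, 0.20 and 0.21, from values of 10.05 to 10.24 on the co-culture arrays and of 9.82 and 10.07 in untreated PC3. TRAF4, TRAF5 and TRAF6 lay between -0.22 and 0.15.

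Considering arrays rather than tests, 5 of the 33 genes were lower on all 7 co-culture arrays than on both untreated arrays (BIRC2, FAS, LTB, TNFRSF1B and TRAF1, the last kept only through the untreated arrays), which is 15.2%, against 11.3% of all genes. For the other direction 1 gene, TNFSF15, was higher on all 7 (3.03%), against 15.4% of all genes. These shares cover brightest probe sets only and were not counted over every kept probe set. On their brightest probe sets the 2 noncoding RNAs kept, TNFRSF10A-DT and TNFRSF14-AS1, overlapped between co-cultures and untreated PC3. A weaker TNFRSF14-AS1 probe set, 233960_s_at, was lower on every co-culture array, at 5.56 to 5.70 against 6.06 and 5.88. Its log2 fold changes of -0.30, -0.38 and -0.30 did not pass (limma adjusted p = 0.122, 0.0722 and 0.0776 over every kept probe set). Probe set 233582_at of the same gene overlapped.

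The 95% intervals of the brightest probe sets were mostly narrow, and they do not bound a gene's other probe sets. In each comparison with untreated PC3, the interval of 32 of the 33 brightest probe sets lay within 2-fold, with that of TNFSF15 the exception. In OB SostKO, rhDKK1 and rhSOST, 28, 28 and 30 of them lay within 1.5-fold of untreated PC3, where 82.9%, 82.4% and 86.3% of all genes did. The ones outside were those of TNFSF15 and TNFRSF10A in every comparison, TNFRSF1A and TNFRSF25 with OB SostKO and rhDKK1, FAS with OB SostKO and rhSOST, and LTB with rhDKK1. Over all 64 kept probe sets of these genes, 59, 61 and 60 intervals lay within 2-fold, and 10, 9 and 11 of the 31 weaker probe sets had a log2 fold change outside the interval of the brightest one of their gene. The median size of the log2 fold change of the brightest probe sets with OB SostKO was 0.13 for these genes and 0.13 for all genes.

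**Figure D3:**
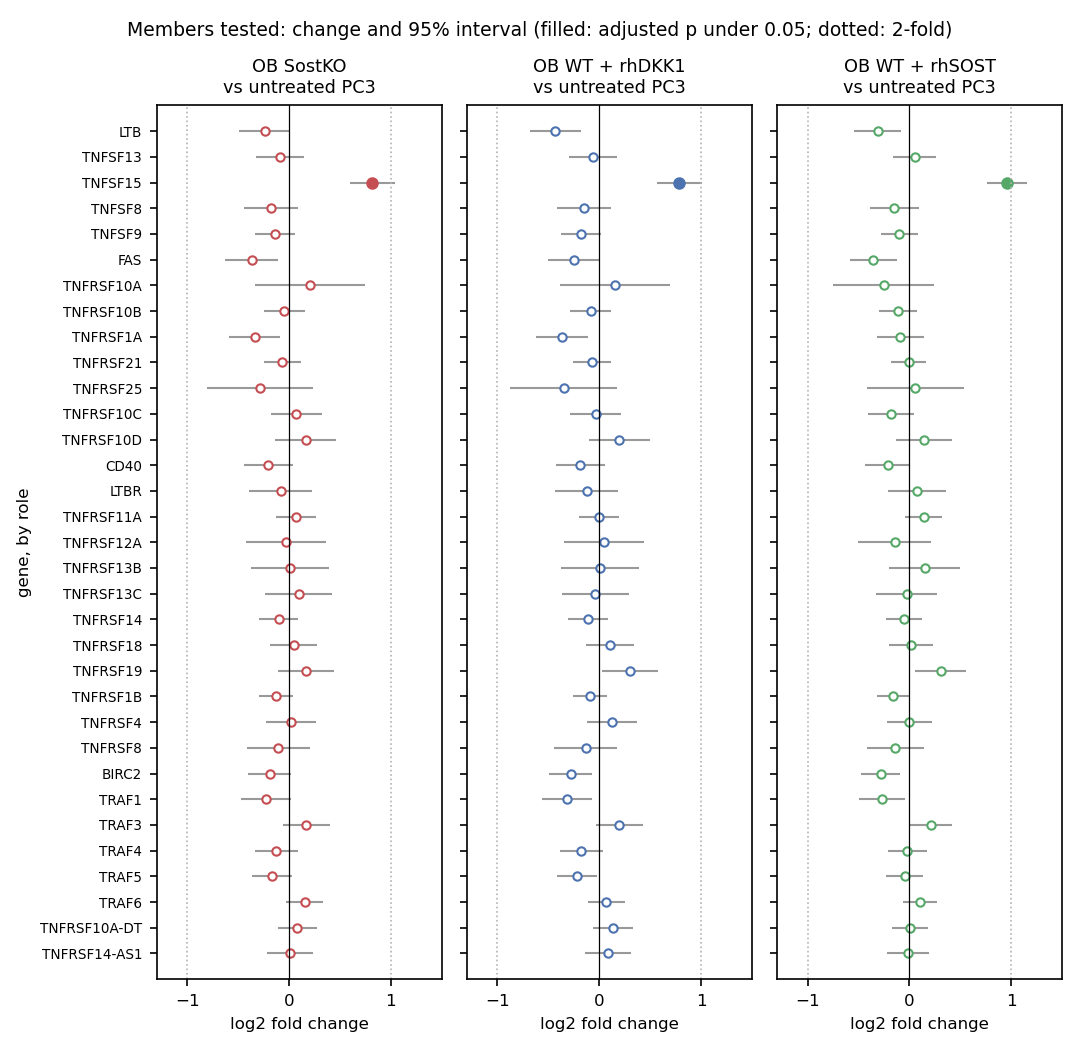
Log2 fold change (x axis) of the 33 genes tested, by role, with 95% intervals, for OB SostKO, rhDKK1 and rhSOST against untreated PC3. Filled points have a limma adjusted p under 0.05, dotted lines mark 2-fold, and TNFSF15 is the only filled point in each panel, at 0.82, 0.79 and 0.96.

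Some genes had weaker probe sets that moved further than the one standing for the gene. Of the 33 genes, 18 had several kept probe sets, and over 64 kept probe sets the test across all 33970 called 2 higher in each co-culture, both of TNFSF15 and one of them 221085_at, which was kept only through the co-cultures, and 1, 0 and 5 lower with OB SostKO, rhDKK1 and rhSOST. In those tests 0.901%, 1.03% and 2.66% of all kept probe sets rose and 0.718%, 0.721% and 1.32% fell. The lower ones that were called belonged to FAS, CD40 and TRAF4, each of which has a brighter probe set that was not called.

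For FAS, 215719_x_at was at 6.01 and 6.32 with OB SostKO, 6.34 and 5.97 with rhDKK1, 6.12, 6.22 and 6.20 with rhSOST, and 6.77 and 6.99 in untreated PC3. Its log2 fold changes were -0.71, -0.73 and -0.70 (limma adjusted p = 0.0655, 0.0606 and 0.0371), and those of 216252_x_at were -0.64, -0.44 and -0.55 (adjusted p = 0.0517, 0.116 and 0.0422). The 4 kept FAS probe sets were all lower on every co-culture array, and the remaining one, 204781_s_at, had -0.17, -0.14 and -0.13. The ending _x marks probe sets whose probes can also match other sequences, and the part of that in the FAS values was not tested. The mean of the 4 FAS probe sets had a log2 fold change of -0.43 with rhSOST (adjusted p = 0.0378).

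CD40, a receptor that antigen-presenting cells and some carcinomas carry, had log2 fold changes of -0.21, -0.18 and -0.21 on its brightest probe set, from 8.13 to 8.31 on the co-culture arrays and 8.58 and 8.29 in untreated PC3. A weaker probe set, 215346_at, was between 7.08 and 7.26 on the co-culture arrays and at 7.56 and 7.60 in untreated PC3, without overlap (log2 fold changes -0.40, -0.41 and -0.40, limma adjusted p = 0.0655, 0.0601 and 0.0379). CD40 probe set 205153_s_at was between 7.81 and 7.98 on the co-culture arrays and at 8.24 and 8.10 in untreated PC3, also without overlap. Its log2 fold changes were -0.33, -0.20 and -0.33 (adjusted p = 0.0851, 0.225 and 0.04998), so it was called with rhSOST, just under the threshold. CD40 probe set 222292_at had 0.16, 0.23 and 0.23. TRAF4, an adaptor first found in breast carcinoma, had -0.83, -0.67 and -0.75 on 211899_s_at (adjusted p = 0.0370, 0.0616 and 0.0238), with values of 5.55 to 5.86 on the co-culture arrays and of 6.69 and 6.32 in untreated PC3, but between -0.18 and -0.02 on its brightest probe set.

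**Figure D4:**
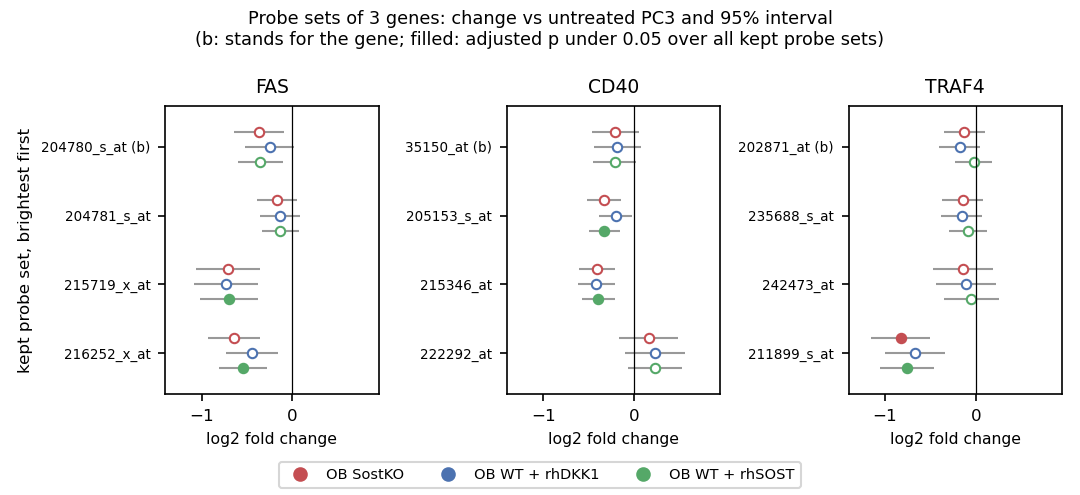
Log2 fold change with its 95% interval for each kept probe set of FAS, CD40 and TRAF4 in the 3 co-cultures against untreated PC3, brightest probe set at the top. Filled points passed the limma test across every kept probe set of the arrays; in each gene the probe set that stands for it (b) is open.

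The co-cultures were also set against each other, which addresses whether osteoblasts without Sost or added rhDKK1 differ from added rhSOST in these genes. None of the 33 genes was called between OB SostKO and rhSOST, between rhDKK1 and rhSOST or between OB SostKO and rhDKK1 (limma adjusted p under 0.05), and neither was any of the 14863 genes tested (0%). At an unadjusted p under 0.05 the counts were 2, 1 and 0 genes, against 4.08%, 2.57% and 0.828% of all genes. TNFSF15 differed by -0.14 between OB SostKO and rhSOST (95% interval -0.34 to 0.06) and by -0.17 between rhDKK1 and rhSOST (95% interval -0.37 to 0.03), so that these intervals reach differences of up to 0.34 and 0.37 on the log2 scale. The smallest p were those of TNFRSF10C for OB SostKO against rhSOST (log2 difference 0.25, adjusted p = 0.800), of TNFRSF1A for rhDKK1 against rhSOST (-0.27, adjusted p = 1) and of LTB for OB SostKO against rhDKK1 (0.19, adjusted p = 1). Both tests that the methods name also called none of these genes in the direct comparisons after Benjamini-Hochberg adjustment, and 0 of all genes tested.

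Genes that pass on the signal of these receptors were read from a list of 46 signaling genes, of which 43 were tested. With OB SostKO 5 fell, with rhDKK1 4 fell and with rhSOST 5 fell (limma adjusted p under 0.05), against 1.65%, 1.76% and 2.10% of all genes. None rose, against 2.07%, 2.50% and 4.87% of all genes. The medians over the list were -0.10, -0.12 and -0.01. MAP3K14 (NIK), the kinase that starts the alternative NF-κB pathway, was at 7.73 and 7.77 with OB SostKO, 7.93 and 7.95 with rhDKK1, 8.08, 7.90 and 8.12 with rhSOST, and 8.48 and 8.32 in untreated PC3, with log2 fold changes of -0.65, -0.46 and -0.37 (adjusted p = 0.0124, 0.0347 and 0.0396). RELB, the NF-κB subunit that this kinase activates, had -0.94, -0.97 and -0.80 (adjusted p = 0.00555, 0.00438 and 0.00438). Both fell in all co-cultures, and so did 2 negative regulators, the ubiquitin-editing enzyme TNFAIP3 (A20) with -1.04, -1.15 and -1.19 (adjusted p = 0.00761, 0.00470 and 0.00227) and its partner TNIP1 with -0.40, -0.40 and -0.31 (adjusted p = 0.0436, 0.0386 and 0.0491). MLKL, which carries out necroptosis, fell with OB SostKO (-0.37, adjusted p = 0.0393). NFKBIA, the inhibitor IκBα, was at 10.91 and 10.72 with OB SostKO, 10.76 and 10.83 with rhDKK1, 10.75, 10.62 and 10.09 with rhSOST, and 11.51 and 11.67 in untreated PC3, and fell with rhSOST (-1.11, adjusted p = 0.00919), where array 3 was lowest. Its log2 fold changes with OB SostKO and rhDKK1 were -0.77 and -0.80 (adjusted p = 0.0625 and 0.0526), and the differences between co-cultures did not pass either. Leaving out 1 array at a time gave 0 to 6 genes that fell with OB SostKO, 2 to 6 with rhDKK1 and 2 to 5 with rhSOST. Without untreated PC3 array 1 the counts were 0, 2 and 2, and without untreated PC3 array 2 they were 3, 2 and 2. For OB SostKO the count was 2 without its array 1 and 3 without its array 2, either rhDKK1 array, or rhSOST array 1 or 2. For rhDKK1 it was 2 without either of its arrays or rhSOST array 1, and it was 3 without rhSOST array 2 and 6 without rhSOST array 3. For rhSOST it was 3 without any 1 of the OB SostKO or rhDKK1 arrays or of its own arrays 1 and 2, and 5 without its array 3.

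Promoter stretches of NFKBIA, TNFAIP3 and LTB are shown with 8 bases on each side of a match to the NF-κB consensus, in capitals. TNFAIP3 passed the test in all co-cultures, NFKBIA only with rhSOST and LTB in none. The stretches are from RefSeq (GRCh38.p14), 5′ to 3′ on the gene's strand.
NFKBIA (minus strand, chr14:35404813-35404838): actggcttGGAAATTCCCcgagcctg
TNFAIP3 (plus strand, chr6:137867184-137867209): gtgactttGGAAAGTCCCgtggaaat
LTB (minus strand, chr6:31582494-31582519): gggtgtgcGGAAAGTCCCagccaggt
The matches in capitals begin 81, 67 and 86 bases before the first start listed. TNFAIP3 held a further match 55 bases before the start, whose first letters are the lower-case end of its stretch. LTB held a further match that begins 38 bases after the start. In capitals LTB and TNFAIP3 share the same 10 letters. LTB had log2 fold changes between -0.43 and -0.24 where TNFAIP3 had between -1.19 and -1.04. For the other signaling genes named above as falling, RELB, TNIP1, MAP3K14 and MLKL, no match to either motif was listed. Genes without a promoter of 300 bases were not searched, and some of these may be among them. A missing match therefore does not show that these genes lack the motif. Of 36 promoters of the signaling list, 7 (19.4%) held the NF-κB consensus, against the 10.8% of all promoters. For TGANTCA it was 1 (2.78%), against 7.76% of all promoters.

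**Figure D5:**
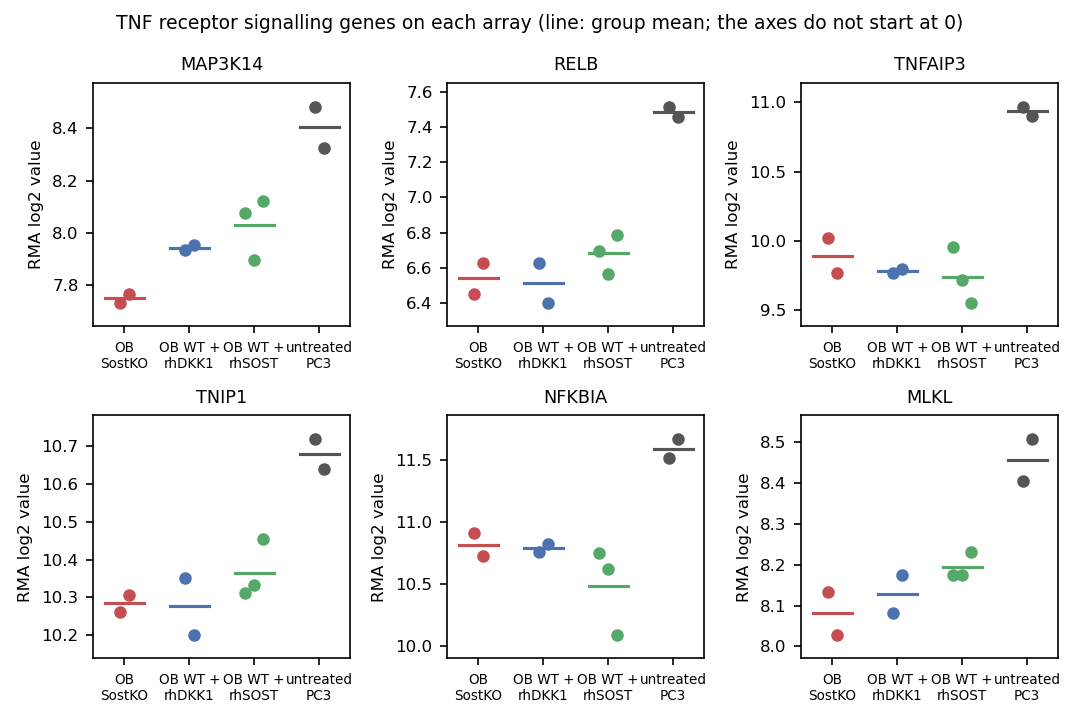
RMA log2 value of 6 signaling genes on each of the 9 arrays, by group, with group means as lines; each panel has its own axis, which does not start at 0. In every panel the 7 co-culture arrays lie below both untreated arrays, for TNFAIP3 between 9.55 and 10.02 against 10.97 and 10.90.

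A further list held 9 genes of the same superfamilies under other symbols, such as EDAR, EDA2R, RELT, CD27 and CD70. Of these, 7 were tested and none was called in any comparison with untreated PC3, with medians of -0.18, -0.22 and -0.15. Osteoblast, leukocyte and endothelial or fibroblast markers, which mouse cells or a mixed culture could bring, had 0 genes called in each comparison. Only 4 of 7, 2 of 8 and 4 of 6 of these markers were tested, so that 0 calls says little. The rest were below the filter or had no probe set. The summed level of the osteoblast list was between 9.81 and 10.59 on the co-culture arrays and between 10.03 and 10.16 on the untreated arrays. Signal from mouse RNA on these human probe sets was not tested.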

How the data were processed

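PC3 RNA was measured on 9 arrays of 4 groups (2, 2, 3 and 2 arrays), and groups were taken from the sample titles and treatments. The deposited log2 values were made by the authors with RMA, a procedure of background correction, quantile normalization between arrays and a summary over the probes of each probe set; its software and version are not given in the sources used here. RMA pulls low signals together, so differences of dim probe sets can be understated. The number of arrays limits the precision.

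In R 4.3.3 with limma 3.58.1, 62 control probe sets of 54675 were left out and 33970 were kept. Of these, 28244 had 1 gene symbol in the platform annotation updated to RefSeq names (GRCh38.p14), 1307 had several and 4419 had none; probe sets with several or no symbol named no gene. A mean for each group was fitted with lmFit and eBayes on all 9 arrays, which share the estimate of spread (8.66 degrees of freedom), and p-values were adjusted over all 14863 genes (Benjamini-Hochberg). Array controls were compared with exact permutation tests. The scripts were tested on simulated data.

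The genes, gene lists and tests were chosen with earlier results of these data known. Genes named with values are those called, the 5 largest changes in each comparison, the 5 brightest, the smallest p in each direct comparison, those whose probe sets differ in call and up to 4 called signaling genes for each comparison. TNFRSF10A, TNFRSF1B, the weaker probe sets of TNFRSF21, TNFRSF25, TNFRSF10B, LTBR, TNFRSF4 and TNFRSF14-AS1 and others that complete a count were named after their values were seen. Alternatives were no filter, a 60th percentile filter, cyclic loess, the mean of the kept probe sets or every one of them, only the 2 groups compared, a replicate block, leaving out each array, other thresholds and the methods' ANOVA with Tukey comparisons and paired t-test. A crossed block, single probe sets of 4 genes and the same alternatives for the signaling list were chosen after seeing the data. Of the 46 signaling genes, 3 were not analysed here.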

Additional observations from a re-analysis of the deposited data

How the results depend on the processing

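TNFSF15 kept its direction under every alternative run, with log2 fold changes of 0.71 to 1.20 with OB SostKO, 0.75 to 1.16 with OB WT + rhDKK1 and 0.91 to 1.18 with OB WT + rhSOST and limma adjusted p of 0.00227 to 0.0906, 0.00234 to 0.0591 and 0.00111 to 0.0198. The highest values, 1.20, 1.16 and 1.18, are means that include probe set 221085_at, kept only through the co-cultures. As counts, 0 of the 33 genes rose with OB SostKO when only those 2 groups were fitted, and 0 rose in each co-culture at a fold of at least 2, with the ANOVA and Tukey comparisons and with the methods' paired t-test; at an unadjusted p under 0.05, 2 rose with rhDKK1 and 2 with rhSOST. Leaving out single arrays gave 0 to 1 genes that rose with rhDKK1, with 0 without rhDKK1 array 2. Genes that fell with OB SostKO were 1 over every kept probe set and 2 at an unadjusted p under 0.05. With rhDKK1, 1 fell at an adjusted p under 0.1 and 5 at an unadjusted p. With rhSOST, 1 fell for the mean of the kept probe sets, 3 over every kept probe set, 2 at an adjusted p under 0.1, 5 at an unadjusted p, and 0 to 1 with single arrays left out, FAS being the 1 without either OB SostKO array (adjusted p = 0.0462). Against the falls at an unadjusted p stand 10.1%, 10.1% and 8.09% of all genes in the order OB SostKO, rhDKK1 and rhSOST, and against those at an adjusted p under 0.1 3.52%, 3.84% and 3.77%. At an unadjusted p, 2 differed between OB SostKO and rhSOST and 1 between rhDKK1 and rhSOST.

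The median of the 33 genes became -0.11 with rhDKK1 and -0.10 with rhSOST for the mean of the kept probe sets, and -0.072 with rhSOST under cyclic loess; with single arrays left out it was -0.0815 to -0.039 with rhDKK1 and -0.079 to -0.019 with rhSOST. Small uncalled values changed sign. Under cyclic loess TNFRSF10C was 0.0019 with rhDKK1 and TNFRSF25 was -0.0005 with rhSOST, for the mean of the probe sets TNFRSF10C was -0.057 with OB SostKO, and under the replicate block and the crossed block, which give rhSOST array 3 no partner, TNFRSF12A was 0.018 and TNFRSF25 was -0.19 with rhSOST. With single arrays left out, TNFRSF10B ranged from -0.15 to 0.056, TNFRSF10C from -0.047 to 0.19, TNFRSF12A from -0.18 to 0.13 and TNFRSF21 from -0.15 to 0.017 with OB SostKO. With rhDKK1, TNFRSF10C ranged from -0.083 to 0.011, TNFRSF12A from -0.11 to 0.20 and TNFRSF21 from -0.15 to 0.0092. With rhSOST, TNFRSF12A ranged from -0.30 to 0.018, TNFRSF21 from -0.089 to 0.074, TNFRSF25 from -0.19 to 0.25 and TRAF4 from -0.065 to 0.041. The causes of these differences were not tested.

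Signaling genes that fell with OB SostKO were 3 without a filter, 0 with only the 2 groups, 1 at a fold of at least 2, 11 at an unadjusted p, 0 with either of the methods' tests and 0 to 6 with single arrays left out. With rhDKK1 they were 1 with only the 2 groups, 1 at a fold of at least 2, 8 at an adjusted p under 0.1, 9 at an unadjusted p, 0 with either of the methods' tests and 2 to 6 with single arrays left out. With rhSOST they were 3 without a filter, 3 with only the 2 groups, 3 under the replicate block, 2 at a fold of at least 2, 10 at an unadjusted p, 0 with either of the methods' tests and 2 to 5 with single arrays left out. Signaling genes that rose were 1, 1 and 2 at an adjusted p under 0.1 and 2, 2 and 4 at an unadjusted p with OB SostKO, rhDKK1 and rhSOST. With rhSOST 1 rose under the 60th percentile filter and 0 to 1 with single arrays left out. Of all genes, 4.45%, 5.25% and 8.34% rose at an adjusted p under 0.1 and 10.6%, 11.2% and 15.5% at an unadjusted p. The shares that fell were 3.52%, 3.84% and 3.77% at an adjusted p under 0.1 and 10.1%, 10.1% and 8.09% at an unadjusted p. The methods' tests, after Benjamini-Hochberg adjustment, called at most 9 of all genes in any of these comparisons.

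Same-numbered arrays did not deviate together throughout (r of -0.57 for OB SostKO and rhDKK1, 0.21 for OB SostKO and untreated PC3). The numbers were therefore used only in the blocks and in the methods' paired t-test. Under the replicate block TNFSF15 had adjusted p = 0.0182, 0.0172 and 0.0111. Neither block changed a call of the 33 genes. Groups of 2 or 3 arrays limit all of these values, and the 7 ligands under the filter lay too close to background for a change to be read.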
